A study of Mus musculus with 2 samples.

Results

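Among wild type AB2.2 mouse embryonic stem cells taken after 4 days of differentiation toward mesendoderm, 1407 of 9227 cell barcodes (15.2%, exact binomial interval 14.5 to 16.0) gave a small share of their transcripts from chromosome 8. The series holds 2 droplet libraries (10x Genomics), 1 of wild type AB2.2 cells and 1 of AB2.2 cells knocked out for PHD2, an enzyme that senses oxygen and is the product of Egln1, both differentiated for the same 4 days. AB2.2 is a long-established line of such cells. Each genotype is 1 library, and the sources used here do not give the number of cultures or clones behind it. Cells of 1 library are not replicates, so no p-value is given. Intervals of ratios and of shares of cells cover counting error only. Those of list medians are order statistics over the genes of the list, which for short lists is their full range. Barcodes were kept with at least 1000 genes and at most 10% of unique molecular identifiers (UMIs) from mitochondrially encoded genes. The share is the UMIs of chromosome 8 genes over the UMIs of all genes, both taken without mitochondrially encoded genes, Rpl and Rps ribosomal protein genes and genes at 500 CPM (UMIs scaled to a fixed library total) or more in either library. A barcode below 5.875% is called a low-share cell here, and the other 7820 wild type barcodes are called high-share cells. Of the 16610 kept barcodes of both libraries, the same threshold placed 3258 of 7383 knockout barcodes (44.1%) in the low range.

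A normal mouse cell carries a pair of each autosome, and the transcript output of a chromosome follows its copy number to a first approximation. Gain of chromosome 8 is a known change of mouse embryonic stem cell lines kept in culture. Chromosome number itself was not measured in the sources used here, and the data below are transcript levels only. Mesendoderm is the common precursor of mesoderm and endoderm, and cells on the way to it lose genes of naive pluripotency, pass a formative or primed epiblast state and then turn on genes of the primitive streak.

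The wild type cells formed a pair of groups along the share. The most filled bin of the lower group was 5.0 to 5.25%, with 437 barcodes, and that of the upper group was 7.25 to 7.5%, with 1948 barcodes. The least filled bin between them was 5.75 to 6.0%, with 130 barcodes. Low-share cells ran from 3.41 to 5.87% with a median of 5.15% (interquartile range 4.95 to 5.36). High-share cells ran from 5.88 to 9.96% with a median of 7.27% (7.01 to 7.53). The barcodes nearest to the threshold had shares of 5.8649% inside and 5.8765% outside it. Within 0.4 percentage points of the threshold lay 480 barcodes, 228 of them low-share and 252 high-share. These ranges describe the selection and are not findings.

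**Figure D1:**
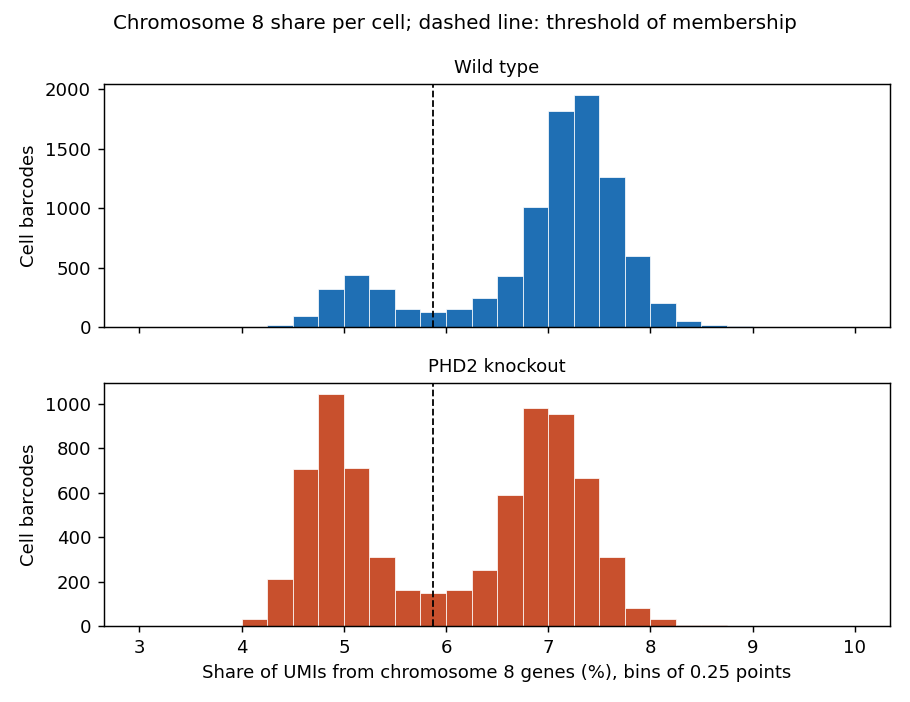
Number of cell barcodes (y axis) by share of UMIs from chromosome 8 genes in percent (x axis, bins of 0.25 points) in the wild type library (top) and the PHD2 knockout library (bottom); the dashed line marks the threshold of 5.875%. Wild type cells peak at 437 barcodes in the 5.0 to 5.25% bin and at 1948 in the 7.25 to 7.5% bin, with 130 in the least filled bin between.

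Depth and quality were close between both sets. Low-share cells had a median of 21525 UMIs, 3760 genes and 1.09% mitochondrial UMIs, and high-share cells a median of 20608 UMIs, 3589 genes and 1.07%. The median number of UMIs behind a cell's share was 8184 and 7509. The highest doublet scores of the library fell on 77 low-share cells (5.47%) and 635 high-share cells (8.12%). They were most frequent just above the threshold: of the 470 barcodes between 5.875 and 6.5%, 15.1% had such a score, and their median depth was 35782 UMIs. In the other bins of the share the median depth was between 19255 and 23019 UMIs, and between 4.50 and 10.9% of barcodes had such a score. By depth, 10.9% of cells under 15000 UMIs were low-share, against 16.0% between 15000 and 25000 UMIs and 15.5% of deeper cells. The libraries shared 18 kept barcodes, 4 of them in low-share wild type cells.

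Pou5f1, the core pluripotency factor, stood at 147 CPM in low-share and 154 CPM in high-share cells, and Utf1, an undifferentiated-cell chromatin factor, at 392 and 467 CPM. Levels here and below are UMIs summed over a set of cells and scaled to the total of genes off chromosome 8. Chromosome 8 genes thus do not enter the scale, but genes off chromosome 8 are most of the denominator of the share. T, the Brachyury gene of the primitive streak, was at 9.91 and 5.45 CPM. Markers of feeder fibroblasts summed to 3.83 and 3.03 CPM with 0 of 8 members at 5 CPM or more, and those of visceral endoderm to 11.2 and 10.9 CPM. Blood and endothelial markers summed to 14.6 and 18.4 CPM, and lateral and cardiac mesoderm markers to 18.6 and 18.2 CPM. Definitive endoderm markers summed to 123 and 153 CPM, but the 2 members at 5 CPM or more in either set differed in direction. Trh was at 36.4 and 83.6 CPM and Cldn6 at 82.4 and 65.4 CPM, so the sum does not show a common direction of these markers.

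Chromosome 8 genes were lower nearly throughout the chromosome. The 1246 genes that entered the share summed to 20969.3 CPM in low-share and 28326.0 CPM in high-share cells, a ratio of 0.740 (interval 0.738 to 0.742). This ratio is what the selection made. The 22 chromosome 8 genes that the share left out, for their high level or as ribosomal protein genes, took no part in it, and they stood at 35432.2 and 49424.5 CPM, a ratio of 0.717 (0.716 to 0.718). Where the odd-ranked genes of the chromosome alone formed the numerator of the share that chose the cells, the even-ranked genes had a ratio of 0.752. Where the even-ranked genes formed it, the odd-ranked genes also had 0.752. The denominator was unchanged and held both gene sets. Of the 1407 cells chosen by each of these gene sets, 94.7 and 94.5% were among the low-share cells and 1257 were chosen by both. Knockout cells had a ratio of low-share to high-share of 0.717 over the genes of the share and 0.707 over the genes left out.

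In order along the chromosome, 23 blocks of 20 or more neighbouring measured genes (473 genes) all had a ratio below 1. The blocks were made of genes that entered the share, so a ratio below 1 is largely what the selection made. Their values describe how evenly the difference lay along the chromosome. The lowest was 0.682 (0.671 to 0.693) in the block from Champ1 to Slc20a2, and the highest was 0.810 (0.80 to 0.82) in the block from Pard6a to Tango6. The median block was at 0.737. The first block (Arhgef18 to Zfp958) was at 0.786 and the last (Chmp1a to 2610044O15Rik8) at 0.781. The block with the highest ratio holds Gm10073, a predicted gene whose own ratio was 0.951 and whose UMIs may come in part from near-identical copies elsewhere. Blocks of the knockout library ran from 0.649 to 0.893, and the highest was the same block.

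**Figure D2:**
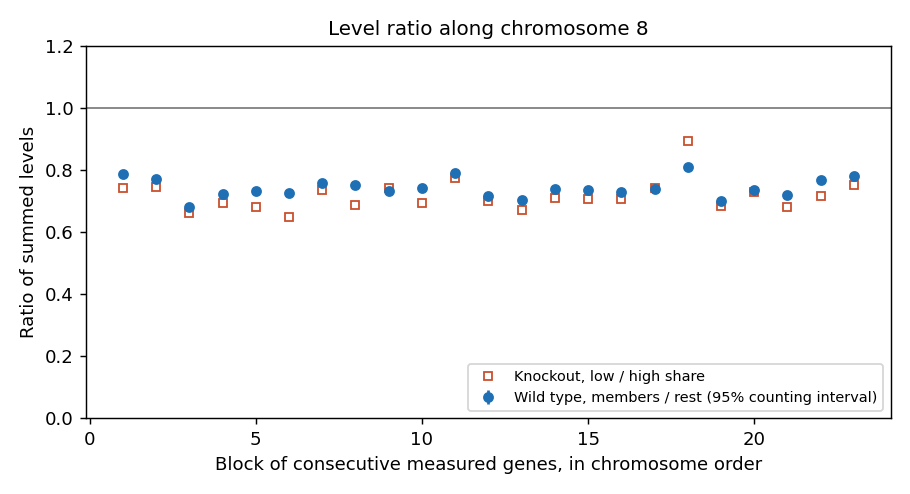
Ratio of summed levels, low-share over high-share cells (y axis, from 0), in 23 blocks of neighbouring chromosome 8 genes in chromosome order (x axis); filled circles are wild type cells with 95% counting intervals, which are mostly smaller than the symbol, and open squares are knockout cells. All wild type blocks lie between 0.682 and 0.810, and no block reaches 1. The blocks hold genes that entered the share, so these ratios describe the selection.

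Taken gene by gene, 495 chromosome 8 genes reached 5 CPM in the higher set. Their median ratio was 0.735 with an interquartile range of 0.691 to 0.790, and 475 of them were below 1. At 20 CPM or more, 250 of 280 genes lay between 0.6 and 0.85. Of the 495 genes, 385 were at least 20% lower (77.8%) and 4 at least 25% higher (0.808%), and 74 were at least 1.5-fold lower (14.9%) and 2 at least 1.5-fold higher (0.404%). Since the share was made from these genes, the counts describe the selection.

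The left-out genes carry the part of the chromosome that did not choose the cells. The ribosomal protein gene Rpl13 had a ratio of 0.686, from 9624 against 14034.2 CPM. Hmgb2, an abundant chromatin protein of dividing cells, was at 2393 and 3350 CPM (ratio 0.714), and Tomm20, an import receptor of the outer mitochondrial membrane, at 1365 and 1919 CPM (0.711). Cox4i1, a subunit of cytochrome c oxidase, was at 1202 and 1737 CPM (0.692), and Lsm4, an RNA-binding component of the spliceosome, at 619 and 937 CPM (0.660). The metallothionein genes Mt1 and Mt2, which bind zinc and copper, had ratios of 0.687 and 0.667. In knockout cells both were further apart, at 0.465 and 0.471. Prdx2, a peroxidase, had a ratio of 0.753, Eif4ebp1, a repressor of translation initiation, 0.770, and Ndufa13, a subunit of respiratory complex I, 0.814. Sin3b, a corepressor scaffold, was closest to parity among the left-out genes of ordinary annotation, at 529 and 559 CPM (0.946, interval 0.931 to 0.962), but had 0.789 in knockout cells. The predicted gene Gm8730 (0.974) and the pseudogene entries Rps26-ps1 (1.01) and Rps18-ps3 (0.918) are uncertain, because ribosomal protein sequences like theirs occur at other chromosomes and reads could be split among them.

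Chromosome 8 genes were also grouped by role. Apart from the left-out genes they entered the share, so their counts describe the selection. Of all 495 measured chromosome 8 genes, 77.8% were at least 20% lower. Genes of the cell cycle and replication had a median log2 ratio of -0.47 over 20 measured genes, 18 of them at least 20% lower. Mcm5, a subunit of the replicative helicase, was at 82.6 and 123 CPM, Orc6, a subunit of the origin recognition complex, at 139 and 198 CPM, and Gins2, part of the same replisome, at 86.1 and 123 CPM. Translation and proteasome genes had a median of -0.51 (17 of 18 lower by that size), among them Psmd7, a lid subunit of the proteasome, at 382 and 543 CPM. Mitochondrial genes had a median of -0.41 (9 of 10), transcription and chromatin genes -0.45 (16 of 19), and signalling and membrane genes -0.36 (8 of 13). Ctcf, the insulator-binding protein, was at 117 and 151 CPM, and Smarca5, a chromatin remodeller, at 205 and 281 CPM.

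Genes of oxygen sensing, redox control and stress had a median of -0.43, with 15 of 18 at least 20% lower. Of all measured chromosome 8 genes, 77.8% were lower by that size. Hmox1, the inducible heme oxygenase, was at 214 and 324 CPM (ratio 0.659), and Nqo1, a quinone reductase, at 11.2 and 17.6 CPM (0.634). Calr, an endoplasmic reticulum chaperone, stood at 256 and 264 CPM, a ratio of 0.970. Herpud1, which takes part in degradation of proteins from the endoplasmic reticulum, was at 69.0 and 64.7 CPM. Egln1, which lies on chromosome 8 and encodes PHD2, was at 17.4 and 19.8 CPM in wild type cells, a ratio of 0.882. In the knockout library Egln1 was at 18.3 CPM in low-share and 11.4 CPM in high-share cells, a ratio of 1.61, against the direction of the chromosome; the sources used here do not say which part of the gene was altered, so these levels do not check the knockout.

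The chromosome 8 genes of pluripotency and epithelium had a median log2 ratio of -0.83 (range -0.92 to -0.35) over 4 measured genes. All 4 were at least 20% lower, as were 77.8% of all measured chromosome 8 genes. The median of the 4 genes was -0.58 with high-share cells weighted to the cluster mix of low-share cells. Klf2, a naive pluripotency factor, was at 5.25 and 10.5 CPM, and Zfp42 (mm10 chromosome 8, 43295063 to 43306980, minus strand), the gene of the naive marker REX1, at 13.4 and 23.8 CPM (ratio 0.565, interval 0.510 to 0.625). Cdh1, which encodes E-cadherin, was at 75.1 and 96.2 CPM (0.780), close to the median of the chromosome. Among genes of 20 CPM or more the lowest ratios were those of Triml2 (43180541 to 43193881), at 8.29 and 23.2 CPM (0.357, 0.314 to 0.405), then 1190005I06Rik (0.507), Ckap2, a protein of the mitotic spindle (0.512), the metallothionein gene Mt3 (0.564) and Zfp42. Triml2 and Zfp42 lie close together on the chromosome. All 5 were also low in the knockout library, where Triml2 had 0.354 and Zfp42 0.517.

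Some chromosome 8 genes were at or above parity: 20 of the 495, of which 9 had a counting interval wholly above 1. The 5 highest of at least 20 CPM were Acta1, Junb, Apela, Irs2 and Herpud1. Acta1, skeletal muscle actin, had 83.2 CPM in low-share and 45.1 CPM in high-share cells (ratio 1.85, interval 1.77 to 1.93). By rising bins of the share it was at 59.5, 87.5 and 108.6 CPM below the threshold. Above it Acta1 was at 60.4, 35.7, 40.95 and 55.4 CPM. With high-share cells weighted to the cluster mix of low-share cells, its ratio was 1.355. Those of Junb, Apela, Irs2 and Herpud1 were then 1.06, 1.04, 1.04 and 0.906. Junb, an immediate early transcription factor, was at 62.3 and 52.1 CPM, Apela, a peptide ligand made by embryonic stem cells, at 34.4 and 30.3 CPM, and Irs2, an insulin receptor substrate, at 25.1 and 22.4 CPM. Among lower genes, chosen after their values were seen, the neighbouring basement membrane collagen genes Col4a1 (12.1 and 8.24 CPM) and Col4a2 (5.86 and 2.91 CPM) had ratios of 1.47 and 2.01. In knockout cells Col4a1 and Col4a2 were at 1.29 and 1.38 and Acta1 at 1.10, while Junb, Apela, Irs2 and Herpud1 were below 1, between 0.723 and 0.858.

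The other autosomes and X were close to parity. With chromosome 8 taken out of the total, their ratios ran from 0.979 (chromosome 19) to 1.01 (chromosome 3). The chromosome Y ratio was 0.790, but its share is small, 0.113 against 0.141% of UMIs, and most of it comes from Erdr1 (353 and 450 CPM), a gene of the region that Y shares with X, whereas Eif2s3y was at 74.0 and 77.0 CPM and Ddx3y at 24.0 and 19.9 CPM. The spread of the chromosome 8 share over cells, as a variance, was 9.57 times what counting alone gives, against 1.43 to 3.39 times for the other chromosomes of wild type cells. Within the low-share cells it was 1.22 times and within the high-share cells 2.43 times; both are narrowed by the selection itself. Chromosome 15 had the widest spread within low-share cells, 6.17 times counting, against 2.82 times in high-share cells; it carries the keratin genes Krt8 and Krt18. In the knockout library chromosome 8 was at 17.9 and chromosome 11 at 12.6 times counting.

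**Figure D3:**
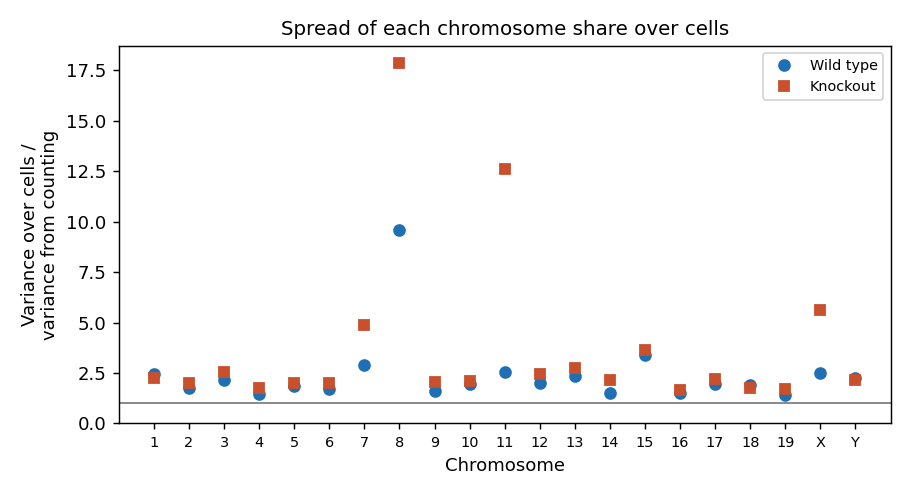
Variance of each chromosome's share of UMIs over cells divided by the variance that counting gives (y axis, from 0; 1 is the grey line) for each chromosome (x axis), in wild type cells (circles) and knockout cells (squares). In wild type cells chromosome 8 is at 9.57 and the other chromosomes lie between 1.43 and 3.39; in knockout cells chromosomes 8 and 11 are at 17.9 and 12.6.

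Off chromosome 8, most genes differed little between low-share and high-share cells. Of 7766 genes at 5 CPM or more in the higher set, 612 were at least 25% higher in low-share cells (7.88%) and 135 at least 20% lower (1.74%). At 1.5-fold the counts were 149 (1.92%) and 29 (0.373%). The median log2 ratio, computed here and for all lists as log2(CPM + 1), was 0.05 with an interquartile range of -0.03 to 0.15. With median-of-ratios scaling in place of the total, 441 were at least 25% higher and 191 lower, so the excess of higher genes depends in part on the scale. A cell with more transcripts from other chromosomes has a smaller chromosome 8 share by construction, and how far that moved genes across the threshold was not tested.

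Among genes off chromosome 8 at 20 CPM or more in either set, Rbmx had the highest ratio. This X-linked gene (ENSMUSG00000031134; mm10 chromosome X, 57383530 to 57393036, minus strand) encodes an RNA-binding protein of splicing, and stood at 20.5 CPM in low-share and 6.93 CPM in high-share cells, a ratio of 2.97 (2.69 to 3.26). The knockout library gave 25.4 and 7.95 CPM, a ratio of 3.19 (2.92 to 3.48). Its intronless relative Rbmxl1 lies on chromosome 8 and was at 214 and 302 CPM in wild type cells (0.708), with 0.657 in knockout cells. These genes are close relatives in sequence, so how reads were assigned between them is uncertain and their levels may not be independent. Over cells thinned to 10000 UMIs, an Rbmx UMI was found in 18.1% of 1369 low-share cells (16.1 to 20.3, exact binomial) and 6.12% of 7600 high-share cells (5.59 to 6.68). Before thinning they were 32.6 and 13.9%. Thinning left out 38 low-share and 220 high-share cells, and no class of cells that should lack these genes was set apart here, so the background of such shares was not measured.

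Genes of endoplasmic reticulum folding had the largest median difference among the lists off chromosome 8 with at least 6 measured genes. Of its 13 measured members, 12 were at least 25% higher in low-share cells and 8 at least 1.5-fold. Over all measured genes off chromosome 8, 7.88 and 1.92% reached these sizes. The list summed to 2516 against 1685 CPM. Its median log2 ratio was 0.62 (order-statistic interval 0.42 to 0.68). Sdf2l1, a component of a chaperone complex (chromosome 16, 17130138 to 17132383), had 59.7 and 23.9 CPM (ratio 2.49, interval 2.36 to 2.63). Hspa5, which encodes the chaperone BiP, was at 317 and 199 CPM, Manf, a secreted stress-response protein, at 605 and 389 CPM, and Creld2, a disulfide isomerase-like protein, at 88.9 and 53.5 CPM. Canx, the membrane chaperone calnexin, stood lowest at 157 and 140 CPM (1.12). Genes of the ATF4 branch and its targets differed less, with a median of 0.21 and 2 of 15 at least 25% higher. Cytosolic chaperones had a median of -0.02, with 1 of 15. Among low-share knockout cells the endoplasmic reticulum list had a median of 0.19, and 2 of 13 were at least 25% higher, where 7.2% of all measured genes off chromosome 8 were.

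The endoplasmic reticulum difference was smaller when the mix of cell clusters was made equal. Wild type cells were clustered on genes off chromosome 8, and of 15 clusters, numbered by size, cluster 12 was led by Derl3, Sdf2l1, Creld2, Dnajc3 and Manf. It held 157 low-share cells among its 274 cells (57.3%, 51.2 to 63.2), which was 11.2% of all low-share cells. With high-share cells weighted to the cluster mix of the low-share cells, the list median was 0.31 and the ratio of Sdf2l1 was 1.41. No cluster led by these genes separated at a Leiden resolution of 0.5, and with chromosome 8 genes kept in the clustering the matching cluster held 63.0% low-share cells. The leading genes are what defines a cluster and are not results.

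Low-share cells were found in every cluster. Next after cluster 12 came cluster 5, led by Cryab, Anxa1 and Krt17, with 28.6% low-share cells, and cluster 4, led by Cited1, Lgals3 and Lmna, with 20.9%. The smallest proportion was 5.29% in cluster 13, led by Phf11d, Morc1 and Mylpf with Dppa5a and Dnmt3l among its 10 leading genes. It was 6.25% in cluster 15, whose median depth was 5048 UMIs. Cluster 10, led by Ccne2, Elavl2 and Cdc6, had 7.05%, and cluster 1, led by Ung, Trh and Lhpp, had 7.99%. Within each cluster the ratio of the chromosome 8 genes of the share lay between 0.666 and 0.789. Clusters depend on genes that differ between both sets, so these proportions describe where the low-share cells lie.

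Epithelial genes and keratins were also higher in low-share wild type cells. Of 14 measured epithelial genes, 8 were at least 25% higher (7.88% of all measured genes off chromosome 8) and 0 were lower by 20%. They had a median log2 ratio of 0.37 (0.19 to 0.97) and summed levels of 1737 and 1157 CPM. Krt8 and Krt18, partner keratins of simple epithelia whose genes are neighbours on chromosome 15, had 324 and 151 CPM (ratio 2.14) and 380 and 185 CPM (2.05). Krt19, another keratin of simple epithelia, was at 128 and 64.7 CPM. In knockout cells these 3 keratins were at 0.924, 0.961 and 0.812, the opposite side of parity, and the epithelial median was -0.12 with 0 of 14 at least 25% higher. Krt18 also stands in the formative list. At the same cluster mix the wild type ratios of Krt8, Krt18 and Krt19 were 1.56, 1.61 and 1.42.

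Other genes among the 12 highest ratios were Cryab, a small heat shock protein (22.2 and 8.38 CPM, ratio 2.65), Ltb, a cytokine of the tumour necrosis factor family (32.2 and 12.7 CPM, 2.53), and Wnt4, a Wnt ligand (46.4 and 20.9 CPM, 2.22). Phlda1 had 2.02, the annexin gene Anxa3 2.01, the glutaredoxin gene Glrx 2.01 and Upp1, uridine phosphorylase, 1.98 (21.1 and 10.7 CPM). Contractile genes and targets of SRF or YAP had a median of 0.33. Of these, 8 of 16 were at least 25% higher, where 7.88% of all measured genes off chromosome 8 were. Tagln, an actin-binding protein, was at 1239 and 773 CPM. Immediate early genes had a median of 0.31 (5 of 10), led by Ier3 at 24.1 and 12.3 CPM. With the cluster mix made equal, the wild type ratios were 1.80 for Cryab, 1.93 for Ltb, 1.67 for Wnt4 and 1.44 for Phlda1. Those of Anxa3, Glrx and Upp1 were 1.53, 1.88 and 1.81. The contractile median was then 0.19 and the immediate early median 0.25. For knockout cells Upp1 and Cryab also had ratios above 1.5, and Wnt4, Ltb and Glrx lay between 1.06 and 1.30, whereas Phlda1 and Anxa3 were below 1.

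**Figure D4:**
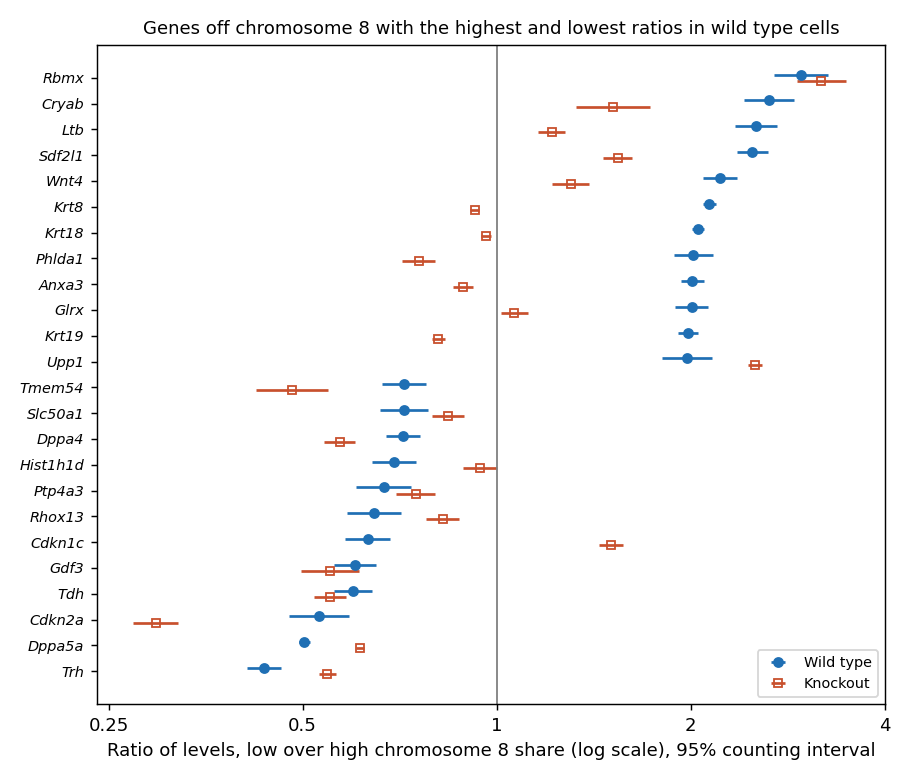
Ratio of levels in low-share over high-share cells (x axis, log scale) for the 12 highest and 12 lowest genes off chromosome 8 by wild type ratio (y axis), at 20 CPM or more; filled circles are wild type and open squares knockout cells, with 95% counting intervals. Rbmx is near 3 in both libraries (2.97 and 3.19), Krt8, Krt18 and Krt19 are near 2 in wild type and below 1 in knockout cells, and Cdkn1c lies on opposite sides of 1 (0.632 and 1.51).

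Naive pluripotency genes differed in direction, and the lower ones were mainly Dppa genes. Off chromosome 8, 8 members of the list were measured, of which 5 were at least 20% lower and 1 at least 25% higher in low-share cells. Over all measured genes off chromosome 8 these shares were 1.74 and 7.88%. The list summed to 525 and 877 CPM. Its median log2 ratio was -0.43, with an interval that spans 0 (-1.01 to 0.32). With members measured from 1 CPM the median was above 0, at 0.17. Dppa5a, a marker of undifferentiated cells (chromosome 9, 78367052 to 78368177), had 344 and 685 CPM (ratio 0.503, interval 0.493 to 0.513). Dppa2, a chromatin factor of early development, was at 9.08 and 18.2 CPM, Dppa4, its partner, at 36.7 and 51.2 CPM, Dppa3 at 2.66 and 6.36 CPM, and Fgf4, a growth factor of the inner cell mass, at 8.01 and 10.9 CPM. Nanog did not share this direction (41.4 and 36.6 CPM), nor did Klf5 (27.7 and 24.4 CPM) or Spp1 (46.3 and 36.8 CPM). At the same cluster mix the wild type ratios of Dppa5a, Dppa2, Dppa3 and Dppa4 were 0.626, 0.576, 0.540 and 0.7495, and the list median was -0.36. A Dppa5a UMI was found in 72.3% of thinned low-share and 84.7% of thinned high-share cells (88.4 and 93.9% unthinned). Knockout cells gave Dppa5a a ratio of 0.614, Dppa2 one of 0.515 and Dppa4 one of 0.571, but Nanog one of 1.34 and Tbx3 one of 2.79. Of 9 members measured there, 2 were at least 25% higher and 4 at least 20% lower, with a median log2 ratio of -0.16. All measured genes off chromosome 8 gave 7.2 and 5.16% in that library.

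Genes of general pluripotency differed less as a list, with a median of -0.12 over 14 genes. Where 1.74% of all measured genes off chromosome 8 were at least 20% lower, 4 of these genes were. Those were Sox2, a core factor, at 33.9 and 43.1 CPM, Gdf3, a ligand of the Nodal family, at 24.7 and 40.9 CPM, Foxd3, a transcription factor, at 5.03 and 7.28 CPM, and Dnmt3l, a cofactor of DNA methylation, at 4.05 and 7.5 CPM. The lowest ratio of all genes off chromosome 8 at 20 CPM or more was that of Trh, which encodes the thyrotropin-releasing hormone precursor, at 36.4 and 83.6 CPM (0.436, 0.410 to 0.462). Tdh, the threonine dehydrogenase of mouse embryonic stem cells, was at 29.6 and 49.3 CPM. Cdkn2a, which encodes the tumour suppressors p16 and p19ARF, was at 11.9 and 22.4 CPM (0.531, 0.476 to 0.590), and at 9.99 and 33.8 CPM (0.296) in knockout cells. Among cells under 15000 UMIs, 122 of them low-share, the wild type Cdkn2a ratio was 1.19; in the deeper strata it was 0.403 and 0.621. Cdkn1c, an imprinted cell cycle inhibitor, was at 21.5 and 34.0 CPM in wild type but at 66.7 and 44.3 CPM in knockout cells. Rhox13, Ptp4a3, Hist1h1d, Slc50a1 and Tmem54 completed the 12 lowest, with ratios between 0.646 and 0.719. At the same cluster mix the wild type ratios of Trh, Tdh and Gdf3 were 0.581, 0.738 and 0.652. Those of Cdkn2a and Cdkn1c were then 0.520 and 0.635, so Cdkn2a stood below Trh.

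Some genes of the primitive streak were higher in low-share cells. Of 8 measured genes of the primitive streak, 4 were at least 25% higher and 0 were lower by 20%. Their median was 0.39 (-0.08 to 1.07). Of all measured genes off chromosome 8, 7.88% were at least 25% higher. Fgf8, a growth factor of the streak, was at 67.7 and 37.4 CPM (ratio 1.81), Sp5, a Wnt-responsive factor, at 17.8 and 7.97 CPM (2.24), Fgf17 at 13.9 and 9.73 CPM, and T at 9.91 and 5.45 CPM (1.82, 1.59 to 2.07). Nodal, the ligand that patterns the streak, was at 67.5 and 65.4 CPM, and Eomes, a streak T-box factor, at 15.5 and 12.4 CPM. Mixl1 was at 1.71 and 0.886 CPM from 54 and 158 UMIs. Mesp1, of the earliest mesoderm, rests on 22 and 70 UMIs, and its ratio of 1.77 (1.05 to 2.90) was below 1 under 3 alternatives. A T UMI was found in 7.82% of thinned low-share cells (6.45 to 9.37) and 4.17% of thinned high-share cells (3.73 to 4.65), and unthinned in 15.2 and 9.46%. An Fgf8 UMI was found in 34.6 and 22.8% of thinned cells (48.4 and 36.8% unthinned). In the knockout library streak genes stood at higher levels. There T was at 372 and 321 CPM in low-share and high-share cells, Eomes at 73.2 and 37.4 CPM and Fgf8 at 270 and 115 CPM. Of 13 streak genes measured there, 10 were at least 25% higher in low-share cells, against 7.2% of all measured genes off chromosome 8.

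Genes of the formative and primed epiblast had a median of 0.17, with 5 of 13 at least 25% higher and 1 lower. Over all measured genes off chromosome 8 the shares were 7.88 and 1.74%. Pou3f1, a formative epiblast factor, was at 124 and 92.2 CPM (ratio 1.34), Fgf5 at 13.7 and 10.4 CPM, Sox4 at 37.7 and 28.8 CPM, and Sfn, which encodes 14-3-3 sigma, at 820 and 540 CPM. Lef1, a transcription factor of the Wnt pathway, was lower (11.7 and 14.8 CPM), and Otx2 stood at 20.96 and 20.64 CPM. A Pou3f1 UMI was found in 61.2% of thinned low-share and 49.4% of thinned high-share cells, and unthinned in 79.6 and 69.0%.

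Genes of growth and basal metabolism were close to parity. Over all measured genes off chromosome 8, 7.88% were at least 25% higher and 1.74% at least 20% lower. Of 19 S phase genes and 21 genes of G2 and M phase, 0 were at least 25% higher or 20% lower, with medians of -0.08 and 0.09. The same was true of 18 proteasome genes (median 0.02), 23 nuclear genes of oxidative phosphorylation (0.00), 14 glycolysis genes (0.09), 14 cytoplasmic ribosomal protein genes off chromosome 8 (-0.09), 16 p53 targets (-0.07) and 13 X-linked housekeeping genes (0.05). HIF targets had a median of 0.10, with 3 of 11 higher by that size and 1 lower. The glucose transporter gene Slc2a1 was at 64.8 and 40.1 CPM, and Pdk1, which restrains pyruvate entry into mitochondria, at 7.44 and 11.1 CPM. Cholesterol synthesis genes had a median of 0.21 (0.12 to 0.29), with 2 of 13 higher. Mesenchymal genes had a median of 0.36 over 5 measured genes, including Vim, the intermediate filament vimentin, at 127 and 86.1 CPM.

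Across bins of the share, levels differed mainly between the low and the high range. The bin just above the threshold lay between them for Rbmx, Krt8, Sdf2l1 and Triml2. It also did for Trh and Dppa5a, but close to the bins beyond. Rbmx was at 20.3, 22.3 and 16.0 CPM in the 3 bins below the threshold, at 10.9 CPM from 5.875 to 6.5%, and at 7.58, 5.99 and 6.68 CPM in the 3 bins above that. Trh ran from 28.5 to 40.7 CPM below the threshold, was at 78.5 CPM in the next bin and ran from 82.1 to 89.2 CPM beyond. Dppa5a ran from 287 to 371 CPM, was at 615 CPM and ran from 653 to 740 CPM. Krt8 was between 298 and 353 CPM below the threshold, at 261 CPM in the next bin and between 132 and 163 CPM beyond. Wnt4 overlapped across the threshold, at 36.6 CPM in the bin below it and 41.5 CPM in the bin above. That bin above has the greatest median depth and the highest proportion of high doublet scores, and the part of mixed droplets in its values was not tested.

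**Figure D5:**
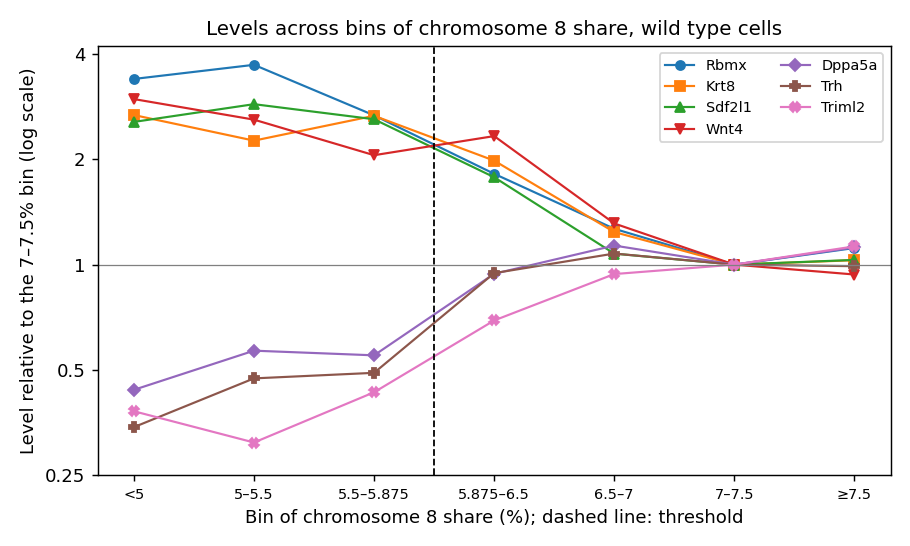
Level in each bin of chromosome 8 share relative to the 7 to 7.5% bin (y axis, log scale) for 7 genes in wild type cells, by bin of share in percent (x axis); the dashed line is the threshold. Rbmx is at 20.3 CPM in the lowest bin and 6.68 CPM in the highest, and Dppa5a goes from 287 to 731 CPM. The bin from 5.875 to 6.5% lies between both ranges for Rbmx, Krt8, Sdf2l1 and Triml2. For Trh and Dppa5a it does too, but close to the bins beyond.

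The same split of the knockout library shared part of this pattern. Its low-share and high-share cells also differed on other chromosomes. With chromosome 8 taken out of the total, chromosome 11 had a ratio of 1.06 and X one of 0.882. The other autosomes there ran from 0.977 to 1.02. The libraries have no samples in common, but the wild type low-share cells were described with both in view. Of 7632 genes off chromosome 8 measured in both, 571 were at least 25% higher in low-share wild type cells and 402 in low-share knockout cells (596 of the 8276 genes measured there, 7.2%). Both counts hold 159 genes, which is 27.9% of the wild type genes and 39.6% of the knockout genes, while 32 of the wild type genes were at least 20% lower in knockout cells. Of the genes at least 20% lower, 121 in wild type and 363 in knockout cells (427 of all measured there, 5.16%), 69 were in both, 57.02 and 19.01%, and 5 were opposite. At 1.5-fold, 187 knockout genes were higher (2.26%) and 121 lower (1.46%). The log2 ratios of the 7632 genes had a Pearson correlation of 0.40 across genes, which are not independent replicates.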

How the data were processed

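Each library came as a matrix of UMI counts by gene and barcode, as the authors deposited it. Per the file headers, Cell Ranger 4.0.0 made the matrices. The build mm10 and the tools Cell Ranger and Seurat are named in the submitters' processing notes. Wild type cells gave 9651 barcodes with 226179474 UMIs, and knockout cells 7713 with 173470962. Of 27998 genes, 27722 were matched by Ensembl identifier to GENCODE M21, which placed 1268 on chromosome 8. Counts were summed per set of cells, scaled to the total off chromosome 8, and compared as plain ratios with exact conditional binomial (Clopper-Pearson) 95% intervals. Genes counted as measured if they reached 5 CPM in either set, and log2 ratios use a pseudocount of 1 CPM, which understates differences of low genes. Cells were clustered with scanpy 1.11.5 (2000 variable genes, 30 components, 15 neighbours, Leiden resolution 1). Scrublet's automatic threshold did not work, so doublets were kept, and removal of the highest scores (0.8% per 1000 barcodes) was an alternative. The ratio and membership steps were tested on simulated data, and the clustering was not. Members, gene lists and the rule for named genes (list members by level and by ratio, and the highest and lowest ratios at 20 CPM or more without predicted genes) were chosen with earlier results of these data known. Rbmxl1, Gm10073, Erdr1, Ddx3y, Col4a1, Col4a2 and the genes of the closing observations were named after their values were seen. Alternatives changed the threshold, genes, limits on cells, scaling, filters and thinning. A gene that the naming rule takes is not reported here.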

Additional observations from a re-analysis of the deposited data

Results flagged for a closer look

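Some values lay on opposite sides of parity in the wild type and the knockout library, and the difference between the libraries was not tested, since each is 1 library. Cdkn1c, an imprinted inhibitor of the cell cycle, had a ratio of low-share to high-share cells of 0.632 in wild type and 1.51 in knockout cells. Phlda1, a pleckstrin homology-like domain gene, had 2.02 and 0.757. The median log2 ratio of the epithelial genes was 0.37 in wild type and -0.12 in knockout cells, and that of the cholesterol synthesis genes was 0.21 and -0.16.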

How the results depend on the processing

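No paired analysis was possible because each group holds 1 library. There were 1355 alternative values for 133 results. Among ratios at least 25% higher or 20% lower, and list medians whose interval did not span 0, 4 alternative values lay on the other side of parity: the ratio of Mesp1 with the threshold lowered by 0.5 points (0.769), without barcodes within 0.4 points of it (0.781) and with cells chosen by odd-ranked genes (0.678), and the median of mitochondrially encoded genes with median-of-ratios scaling (-1.183e-05). Low-share cells made up 11.6% with the threshold lowered, 18.9% with it raised and 13.5% without barcodes near it. The chromosome 8 ratio over genes of the share and over genes left out was 0.727 and 0.709 (lowered), 0.767 and 0.750 (raised), 0.719 and 0.697 (without barcodes near it), 0.745 and 0.708 (all genes in the share), 0.752 and 0.724 (cells by odd-ranked genes), 0.752 and 0.722 (by even-ranked genes) and 0.738 and 0.713 (without the highest doublet scores). Off chromosome 8, 17 genes were at least 1.5-fold lower with the threshold raised. With genes measured from 10 CPM, 388 were at least 25% higher, 63 at least 20% lower and 15 lower by 1.5-fold; from 1 CPM, 1272 were at least 25% higher and 505 at least 20% lower, and 390 were higher and 153 lower by 1.5-fold, since fewer or more genes were counted. At the same cluster mix, an alternative added after the data were seen, 69 were higher by 1.5-fold; 422 were at least 25% higher, 393 of them among the 612. Values nearer parity, or with an interval spanning 0, crossed it more often. Herpud1 had 0.906 at the same cluster mix against 1.07. The naive pluripotency median ran from -0.48 to 0.17, above 0 with members measured from 1 CPM, and that of nascent mesoderm from -0.19 to 0.26. The medians of Nodal, BMP and FGF/ERK targets, Y-linked, X-linked housekeeping, antioxidant, proteasome, nuclear oxidative phosphorylation and cytosolic chaperone genes also changed sign in at least 1 alternative.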

Other observations

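Genes that differed by at least 1.5-fold in the same direction in both libraries are given here because the report describes them only as counts; they were picked after their values were seen. Higher in low-share cells of both were 27 genes, 21.1% of the 128 wild type and 28.7% of the 94 knockout genes that passed this size and were measured in both. Several serve antigen presentation and the interferon response. Psmb8, an immunoproteasome subunit, was at 26.6 and 14.5 CPM in low-share and high-share wild type cells (ratio 1.83) and at 110 and 37.0 CPM in knockout cells (2.97). Tapbp, which loads peptides on class I molecules, was at 18.6 and 10.1 CPM in wild type cells (1.85) and had 2.12 in knockout cells. The class I genes H2-D1 (35.3 and 19.8 CPM) and H2-K1 (54.1 and 34.2 CPM) had ratios of 1.79 and 1.58 in wild type and 1.55 and 1.75 in knockout cells. Isg15, an interferon-induced ubiquitin-like protein, had 1.69 and 2.42. B2m, the light chain of class I molecules, did not share this size (79.8 and 68.5 CPM, ratio 1.17, with 0.981 in knockout cells), and neither did Tap1, a peptide transporter (1.02 and 1.01). Of the 10 measured genes of the interferon and immunoproteasome list, 5 were at least 25% higher in wild type low-share cells, and 6 of 11 in knockout cells. Over all measured genes off chromosome 8 these shares were 7.88 and 7.2%. The wild type median log2 ratio of the list was 0.31 (0.03 to 0.67). Igfbp3, a binding protein of insulin-like growth factors, Slc2a3, a glucose transporter, and Eef2kmt, a methyltransferase of elongation factor 2, were also among the 27, with wild type ratios of 1.77, 1.80 and 1.70.

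Lower in low-share cells of both libraries were 17 genes, 63.0% of the 27 wild type and 16.5% of the 103 knockout genes of that size. Besides Trh, Tdh, Gdf3, Cdkn2a, Dppa2, Dppa5a and Dnmt3l, they included Ooep, a maternal-effect gene of the oocyte and early embryo (6.20 and 11.3 CPM in wild type cells), Gpx2, a glutathione peroxidase (3.42 and 7.36 CPM), and Eng, the endoglin coreceptor of TGF-beta (4.18 and 6.62 CPM). All 4 measured Dppa genes lay below parity in wild type cells, between 0.418 and 0.716.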
